A study of Mus musculus with 6 samples.

Results

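Nerve terminals store transmitter in synaptic vesicles, and 47 genes that encode the proteins of these vesicles and of their release were read here in the mouse hippocampus after a stroke. They were picked by name and function, with earlier results of these data known. A named row was found for 45 of them among 41386 genes of the deposited count table, and all 45 had enough counts to be tested, as had 18569 genes in all. Sv2b and Syt11 had no named row and were not analysed here.

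The comparison had 2 groups of 3 RNA-seq libraries each, all of whole hippocampus from C57BL/6 mice (C57BL/6J in the study's methods) aged 56 days, and the labels name no transgene in either group. In the ischemia/reperfusion group (I/R, IR24 in the labels) the left middle cerebral artery was closed by a filament for 1.5 h before 24 h of reperfusion. Sham mice had the same operation without the filament. Per the study's methods the hippocampi were those of the injured side and a library pooled several of them, so the spread between libraries is one between pools.

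Release runs as a cycle. Vesicles are filled with transmitter, tethered by synapsins and Rab3, and primed at the active zone by RIM and Munc13 proteins. A SNARE complex of synaptobrevin, syntaxin and SNAP-25 then fuses them with the plasma membrane once a synaptotagmin binds calcium, and dynamin and clathrin retrieve the membrane. In the hippocampus most terminals release glutamate loaded by VGLUT1, and the mossy fibres of the dentate granule cells and the axons of CA3 neurons carry many of them.

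Between 37493042 and 44788547 counts were assigned to genes per library. Levels are given as CPM, a gene's count relative to its library size after that size was multiplied by edgeR's TMM factor (from a trimmed mean of log ratios). The factors were 1.06 to 1.15 in I/R and 0.908 to 0.920 in sham. A gene was called a DEG (differentially expressed) where edgeR's quasi-likelihood test gave a Benjamini-Hochberg adjusted p under 0.05 over all genes tested and the fold change passed 1.2 in either direction. Values of the 3 libraries of a group are listed in the order of replicates 1, 2 and 3, means are ± SD with n = 3 pools, and a fold change is followed by its standard error (SE). Hippocampal markers were read in sham, where the dentate granule cell list (Prox1, Dsp and 4 others) summed to 510.1 to 557 CPM and the CA1 list to 682 to 738 CPM. In the I/R libraries these lists summed to 138, 247 and 274 CPM and to 188, 316 and 351 CPM. Thalamus markers summed there to 173, 115 and 123 CPM, and cortex and subplate markers to 150.1, 165 and 170.5 CPM. Sums of different lists do not measure shares of tissue, and a difference in dissection was not tested. Choroid plexus markers set libraries apart within both groups. Their sum was 32.9 CPM in I/R replicate 3 and 36.4 CPM in sham replicate 1, against 1594 and 3607 CPM in the other two I/R libraries and 2675 and 4415 CPM in the other two sham libraries.

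Release genes fell together after I/R. Of the 45 genes, 37 were DEGs lower in I/R, 1 was higher (Sv2c) and 7 were not called, where 19.9% of all genes tested were called lower, 21.8% higher and 41.8% in either direction. Their median log2 fold change was -1.01, while that of all genes tested was 0.03. A fall of more than 2-fold was reached by 23 of them, against a background of 4.67% of genes, and a rise of that size by 1, against 10.2%. In 38 genes every I/R library lay below every sham library, where 28.1% of all genes did so, and in 2 every I/R library lay above, where 29.3% did. The share of all counts that the 45 genes took was 2.17%, 2.18% and 2.13% in the sham libraries and 0.836%, 1.30% and 1.42% in the I/R libraries. Without the pair of libraries nearly free of choroid plexus markers, a setting chosen after seeing the data, 35 were lower and 1 was higher. With library size alone as the scaling, 32 were lower and 4 higher and the median was -0.76, while the median of all genes moved to 0.28.

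**Figure D1:**
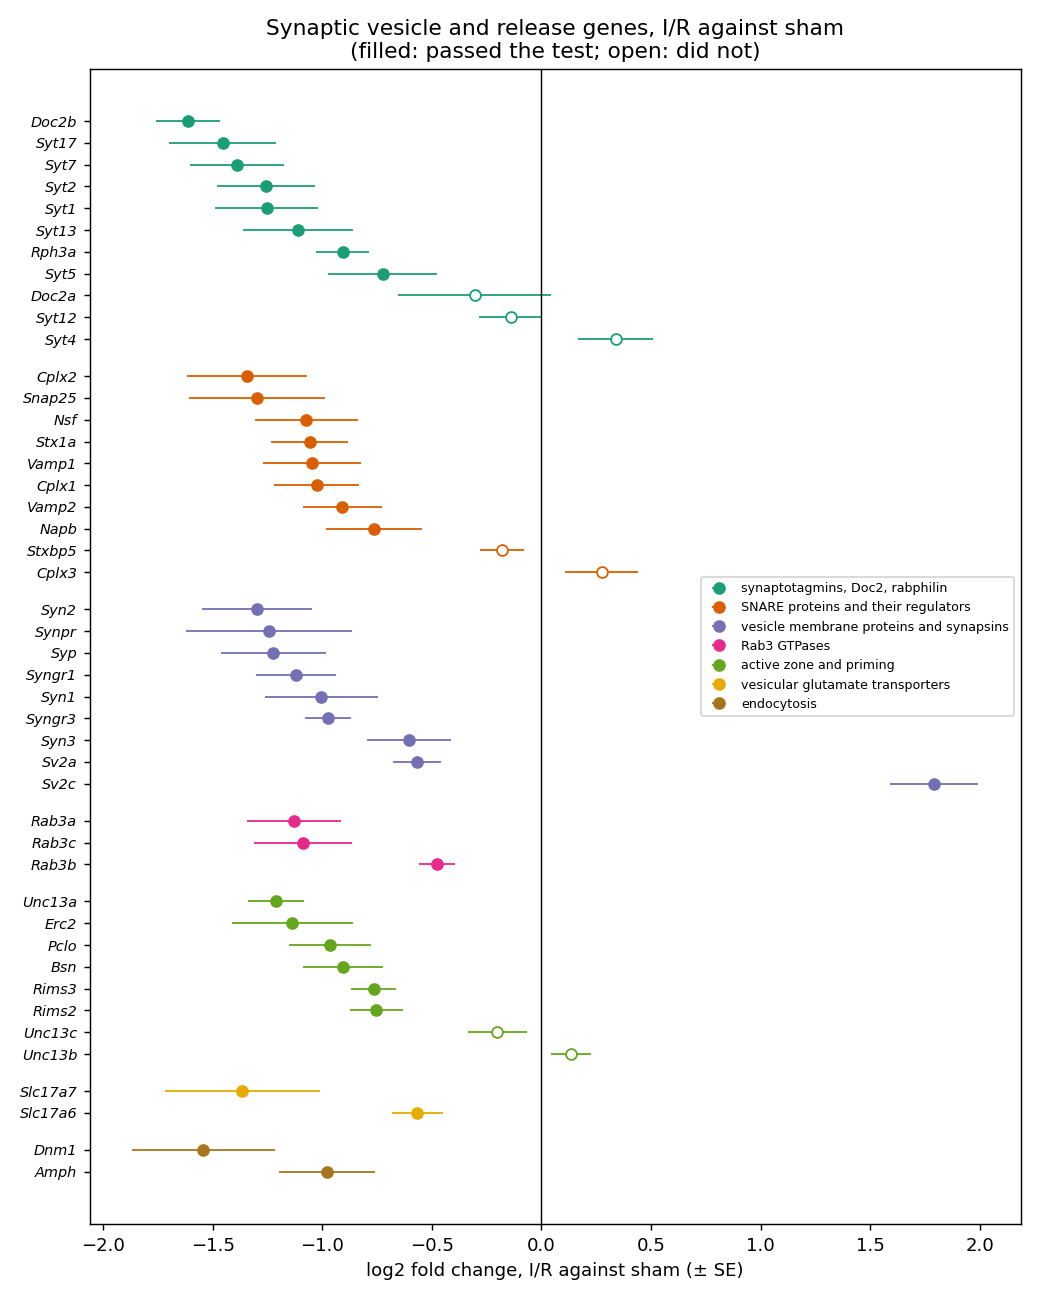
Log2 fold change of I/R against sham for the 45 release genes, ordered by role and then by size, with bars of ± 1 SE from edgeR; filled points were DEGs and open points were not. All filled points except Sv2c, at 1.79, lie left of 0, between -1.61 and -0.48.

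General markers of neurons moved with these genes. Of 14 pan-neuronal markers tested, 10 were lower and 0 higher, with a median log2 fold change of -0.72, and their summed level was 5193 to 5459 CPM in sham and 2238 to 3621 CPM in I/R. Dentate granule cell markers were lower in 6 of 6, with a median of -1.94 and a sum of 138 to 274 CPM in I/R, and CA1 pyramidal markers in 5 of 5, with a median of -1.12 and a sum of 188 to 351 CPM. Interneuron markers were lower in 5 of 7, with a median of -0.57 and a sum that went from 1064 to 1113 CPM in sham to 767 to 869 CPM in I/R. In bulk tissue, fewer cells of a type and less RNA per cell cannot be told apart.

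Other cell types that the dissection can hold were measured beside them. Infiltrating myeloid markers (S100a8, S100a9, Ccr2 and Lyz2) were higher in 4 of 4 tested, with sums of 3.87 to 5.17 CPM in sham and 15.8 to 54.2 CPM in I/R. Of the 6 listed, Ly6c2 had no named row and Itgam had 3 counts or fewer in every library. Neither could be read, and why Itgam had so few counts was not tested. Endothelium markers were higher in 4 of 5 and lower in 1 (sums of 229 to 234 CPM in sham and 295 to 420.5 CPM in I/R). Microglia markers were higher in 3 of 6 and lower in 2 (219 to 249 CPM and 232 to 323 CPM). Astrocyte markers were higher in 2 of 7 and lower in 4 (5342 to 5638 CPM and 4901 to 5219 CPM), and oligodendrocyte markers were lower in 3 of 7 and higher in 0 (7381 to 9089.6 CPM and 6148 to 7169 CPM). Of neighbouring regions, thalamus markers were lower in 1 of 8 and higher in 1 (134 to 144 CPM and 115 to 173 CPM), striatum markers lower in 2 of 7 and higher in 1 (194 to 221 CPM and 104 to 147 CPM), and cortex and subplate markers lower in 1 of 6 and higher in 1 (172 to 195 CPM and 150.1 to 170.5 CPM). Choroid plexus markers were called in 0 of 6 by edgeR, with unadjusted p-values from 0.082 to 0.83, and in 0 by DESeq2. The part of these cells in the fall of the release genes was not tested.

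The promoters of 4 genes are shown, chosen after their values and motif letters were seen: the gene of highest level, the pair with letters of a repressor element, and the gene that rose. Slc17a7 encodes VGLUT1, the vesicular glutamate transporter of hippocampal pyramidal neurons, and had the highest sham level per kb. Syn1 (synapsin I) and Unc13a (Munc13-1) were the release genes whose promoters held letters of the RE1 element, which the repressor REST is known to bind in neuronal genes outside neurons. Sv2c, a vesicle glycoprotein gene, was the one that rose. Windows run 5′ to 3′ from 250 bases before to 50 bases after the start site, are credited to RefSeq and use GRCm38.p6; motif letters are in capitals. Slc17a7 is chr7:45163671-45163970 on the plus strand, Syn1 chrX:20920869-20921168 on the minus strand, Unc13a chr8:71671708-71672007 on the minus strand and Sv2c chr13:96132528-96132827 on the minus strand.
Slc17a7: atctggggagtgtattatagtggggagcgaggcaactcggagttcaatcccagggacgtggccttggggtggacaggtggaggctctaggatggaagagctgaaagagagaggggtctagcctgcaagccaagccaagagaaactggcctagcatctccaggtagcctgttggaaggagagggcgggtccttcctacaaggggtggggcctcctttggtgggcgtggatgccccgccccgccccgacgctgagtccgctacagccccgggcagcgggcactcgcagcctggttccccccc
Syn1: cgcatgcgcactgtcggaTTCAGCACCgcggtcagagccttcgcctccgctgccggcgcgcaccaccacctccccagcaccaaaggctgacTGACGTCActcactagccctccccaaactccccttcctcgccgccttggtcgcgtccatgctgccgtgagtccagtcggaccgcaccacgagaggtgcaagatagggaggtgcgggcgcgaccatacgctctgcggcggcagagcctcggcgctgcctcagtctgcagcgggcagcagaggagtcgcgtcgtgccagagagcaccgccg
Unc13a: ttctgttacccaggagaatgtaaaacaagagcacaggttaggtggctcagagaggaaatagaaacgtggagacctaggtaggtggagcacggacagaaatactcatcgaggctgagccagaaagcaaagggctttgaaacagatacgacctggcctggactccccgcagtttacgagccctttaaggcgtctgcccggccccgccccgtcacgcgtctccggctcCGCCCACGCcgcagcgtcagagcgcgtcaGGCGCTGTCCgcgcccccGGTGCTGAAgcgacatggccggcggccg
Sv2c: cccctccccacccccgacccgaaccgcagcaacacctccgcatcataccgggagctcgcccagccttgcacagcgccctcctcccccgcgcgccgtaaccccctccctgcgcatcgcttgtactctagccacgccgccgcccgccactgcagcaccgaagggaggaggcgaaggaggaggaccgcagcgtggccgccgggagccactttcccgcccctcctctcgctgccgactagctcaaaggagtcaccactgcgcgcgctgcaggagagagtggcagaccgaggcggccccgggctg
In Syn1 the capitals mark the left arm of the RE1, TTCAGCACC, at bases 19 to 27 of the window and a CRE, TGACGTCA, at bases 92 to 99. In Unc13a they mark, all on the opposite strand, an EGR site (GCGTGGGCG) at bases 226 to 234, the right arm (GGACAG, any base, GCC) at bases 255 to 264 and the left arm at bases 273 to 281, with 8 bases between the arms. Windows were found for 32 of the 45 genes, 40 windows in all. Both strands were searched. A release gene was counted once if any of its windows held the letters, while the share over all promoters is per window, so the units differ. The left arm was in 2 of the 32 genes and in 0.371% of all 32851 promoter windows, the right arm in 1 and 0.521%, the EGR site in 1 and 0.612%, and the CRE in 1 and 1.79%. The whole RE1 with 2 bases between its arms was in 0 of them and in 0.00304% of all windows, and the counts of single arms include any window that holds the whole. Only exact letters were searched, so elements with a mismatch were not counted. In Syn1 the left arm is followed by gcggtcagagcc, which matches 2 free bases and the right arm except for a T in place of an A. Promoters of the release genes were rich in GC, with a median of 62.2% against 52.7% over all windows, and held a median of 17.5 CpG against 7.

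Synaptotagmins, Doc2 proteins and rabphilin, the class that holds the calcium sensors of release together with relatives that are not sensors, were lower in 8 of 11 genes, and none was called higher. Doc2b, a cytosolic high-affinity calcium sensor linked to spontaneous and asynchronous release, had 34.1, 42.0 and 51.7 CPM in the I/R libraries and 134, 126 and 131 CPM in the sham libraries. Its fall was the largest of all 45, a log2 fold change of -1.61 ± 0.15 (edgeR, adjusted p = 0.000375), and its I/R libraries stayed far under the sham range. It lies on chromosome 11 from 74070280 to 74097877 on the BALB/cJ assembly of the table. Syt17, an atypical synaptotagmin, had 19.0, 37.6 and 39.3 CPM in the I/R libraries and 88.3, 91.2 and 83.4 CPM in the sham libraries, which gave a log2 fold change of -1.46 ± 0.25 (edgeR, adjusted p = 0.00303). Syt7, the slow, high-affinity sensor of facilitation and asynchronous release, had 113, 192 and 209 CPM in the I/R libraries and 454, 454 and 438 CPM in the sham libraries. Its log2 fold change of -1.39 ± 0.21 (edgeR, adjusted p = 0.00212) was again a fall that every I/R library shared, with replicate 1 lowest.

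The fast sensors had nearly equal log2 fold changes. Syt1, which triggers synchronous release at most forebrain synapses, had 476, 789.9 and 921 CPM in the I/R libraries and 1784, 1755 and 1681 CPM in the sham libraries and a log2 fold change of -1.26 ± 0.23 (edgeR, adjusted p = 0.00449). Syt2, its counterpart at fast inhibitory and hindbrain synapses, was much scarcer and had 48.2, 48.5 and 45.6 CPM in sham and 12.5, 23.6 and 23.4 CPM in I/R, a log2 fold change of -1.26 ± 0.22 (edgeR, adjusted p = 0.00367). The ratio of Syt1 to Syt2 counts was 37.05, 36.2 and 36.8 in sham and 38.0, 33.4 and 39.3 in I/R, so the groups overlapped and the mean log2 ratio differed by 0.01. Syt2 overlaps Ppp1r12b on the opposite strand, which had 4641 counts on average in I/R against 817 for Syt2, and whether the counting used the strand is not stated. Syt13, which does not bind calcium, changed by -1.11 ± 0.25 (edgeR, adjusted p = 0.0098) on the log2 scale. Rph3a, the Rab3 effector rabphilin, changed by -0.91 ± 0.12 (edgeR, adjusted p = 0.00129) and Syt5 by -0.72 ± 0.25 (edgeR, adjusted p = 0.0476), close to the threshold, and Syt5 lost its call in 10 of 20 settings.

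The other 3 genes of the class were not called. Syt4, an activity-induced synaptotagmin without fast sensor function, had 119.9, 175 and 186 CPM in the I/R libraries and 140.1, 110.2 and 131 CPM in the sham libraries, a log2 fold change of 0.34 ± 0.17 (edgeR, adjusted p = 0.153). Its I/R libraries 2 and 3 were above all sham libraries and replicate 1 was within their range, and it was called higher without that replicate, with library size only and on FPKM. Syt12 had 26.2, 25.1 and 28.5 CPM in sham and 23.7, 28.9 and 19.7 CPM in I/R and a log2 fold change of -0.14 ± 0.15 (edgeR, adjusted p = 0.469). Doc2a, the close relative of Doc2b, had 7.79, 10.4 and 9.33 CPM in sham and 3.63, 10.8 and 7.90 CPM in I/R, and its log2 fold change of -0.30 ± 0.35 (edgeR, adjusted p = 0.517) carried the widest error of the class. Of the 50-base stretches of Doc2a transcripts 28.7% also lay in Ino80e transcripts, so its count is uncertain.

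SNARE proteins and their regulators were lower in 8 of 10. Cplx2, complexin 2, which clamps and then promotes SNARE-driven fusion in excitatory neurons, had 468, 965 and 989.5 CPM in the I/R libraries and 2059, 2009 and 2080.2 CPM in the sham libraries, a log2 fold change of -1.34 ± 0.27 (edgeR, adjusted p = 0.00631). Snap25, a plasma membrane SNARE that gives a pair of helices to the complex, was the SNARE gene of highest CPM and had 470.2, 1052 and 1173 CPM in the I/R libraries and 2271, 2223 and 2141 CPM in the sham libraries. A log2 fold change of -1.30 ± 0.31 (edgeR, adjusted p = 0.0122) followed, with I/R replicate 1 far below replicates 2 and 3. Nsf, the ATPase that takes spent SNARE complexes apart, had 423, 734 and 820.4 CPM in the I/R libraries and 1398, 1416 and 1349.8 CPM in the sham libraries and a log2 fold change of -1.07 ± 0.24 (edgeR, adjusted p = 0.00848). Among this class it had the highest sham level by the authors' FPKM, which divides by a shorter gene length than the table lists.

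The remaining SNARE genes that passed fell by similar amounts. Stx1a, the syntaxin of the presynaptic membrane, changed by -1.06 ± 0.18 (edgeR, adjusted p = 0.00283) on the log2 scale, Vamp1 (synaptobrevin 1) by -1.05 ± 0.23 (edgeR, adjusted p = 0.00792) and Cplx1 (complexin 1) by -1.03 ± 0.19 (edgeR, adjusted p = 0.00475). Vamp2, the main vesicle SNARE of the forebrain, changed by -0.91 ± 0.18 (edgeR, adjusted p = 0.00584), from 1055 ± 25.7 CPM in sham to 562 ± 129.8 CPM in I/R. Napb, the brain form of the SNAP adaptor of Nsf, had 777, 737 and 721 CPM in sham and 292, 468 and 555 CPM in I/R and changed by -0.76 ± 0.22 (edgeR, adjusted p = 0.0248). Its call was lost with library size alone and when I/R replicate 2 or any one sham library was left out. Cplx3, the complexin of retinal ribbon synapses and subplate neurons, was low and not called, with 8.66, 9.74 and 7.35 CPM in sham and 11.95, 9.98 and 9.23 CPM in I/R and 0.27 ± 0.17 (edgeR, adjusted p = 0.219). Stxbp5, tomosyn, an inhibitor of SNARE assembly, had 168, 155 and 157 CPM in sham and 125, 151 and 149 CPM in I/R. All of its I/R values were below all of its sham values, yet its log2 fold change of -0.18 ± 0.10 (edgeR, adjusted p = 0.188) did not pass the test and was 0.07 with library size only.

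**Figure D2:**
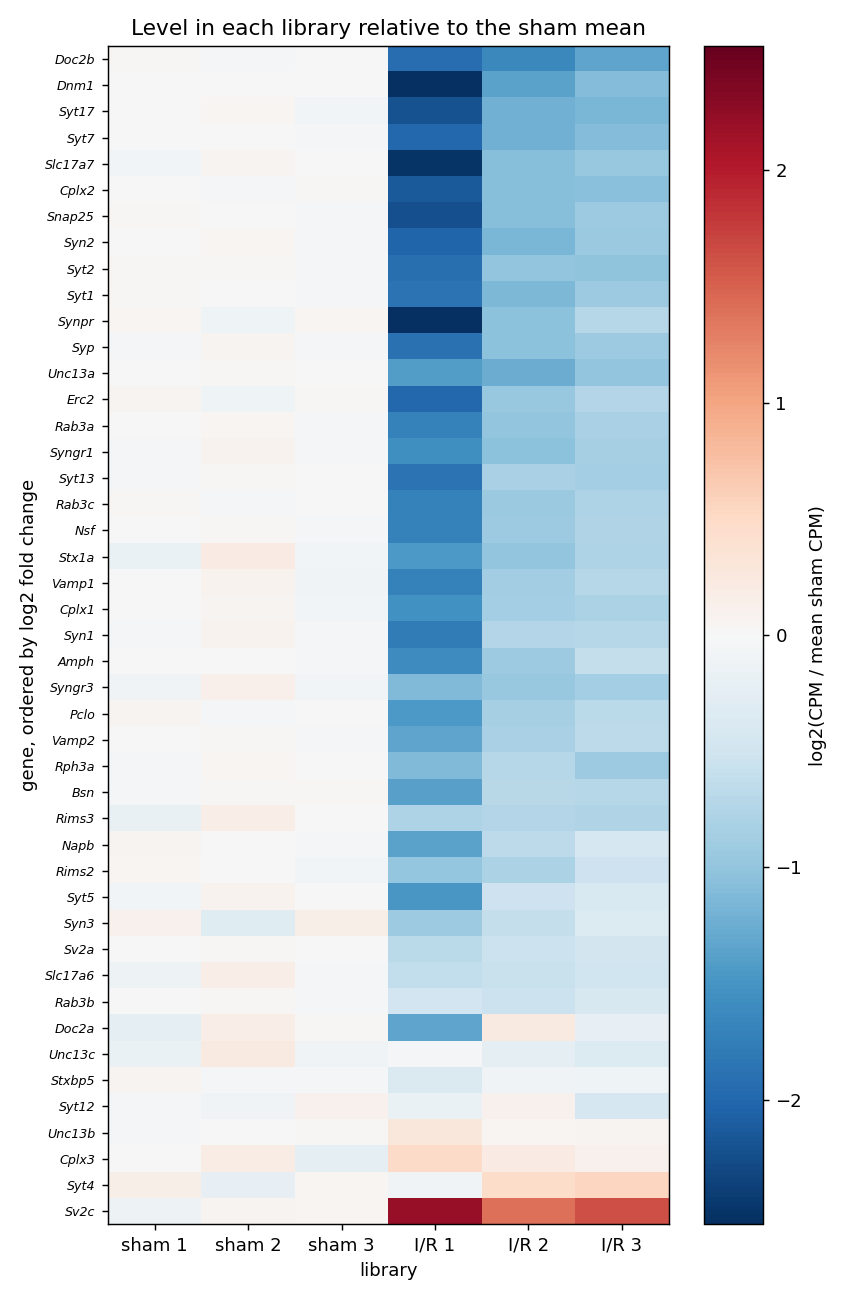
Level of each of the 45 genes in each library as log2 of its CPM over the mean sham CPM, with genes ordered by log2 fold change. The sham columns are near 0 throughout, I/R replicate 1 is the darkest blue column, and Sv2c at the bottom is red in all 3 I/R columns.

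Vesicle membrane proteins and synapsins split, with 8 of 9 lower and 1 higher. Syn2, synapsin II, which tethers vesicles in the reserve pool, had 180.4, 331 and 385 CPM in the I/R libraries and 735, 758 and 709.7 CPM in the sham libraries and a log2 fold change of -1.30 ± 0.25 (edgeR, adjusted p = 0.00529). Synpr, synaptoporin, a synaptophysin relative enriched in mossy fibre terminals, had 29.9, 83.9 and 105 CPM in the I/R libraries and 179, 160.3 and 179 CPM in the sham libraries. Its I/R replicate 1 was far below the other two, the log2 fold change of -1.25 ± 0.38 (edgeR, adjusted p = 0.031) had the widest error of the class, and the call was lost without a count filter and when I/R replicate 2 or any one sham library was left out. Syp, synaptophysin, among the most abundant proteins of the vesicle membrane and the gene with the highest sham FPKM of all 45, had 346, 620.0 and 678 CPM in the I/R libraries and 1247, 1335 and 1257 CPM in the sham libraries, a log2 fold change of -1.22 ± 0.24 (edgeR, adjusted p = 0.00548).

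The other fallers of the class had log2 fold changes from -1.12 to -0.57. Syngr1 (synaptogyrin 1) changed by -1.12 ± 0.18 (edgeR, adjusted p = 0.00267), Syngr3 (synaptogyrin 3) by -0.98 ± 0.11 (edgeR, adjusted p = 0.000684) and Sv2a, the vesicle glycoprotein that levetiracetam binds, by -0.57 ± 0.11 (edgeR, adjusted p = 0.00493) with 558, 575 and 556 CPM in sham and 348, 385 and 406 CPM in I/R. Syn1 changed by -1.01 ± 0.26 (edgeR, adjusted p = 0.0159), from 533 ± 26.9 CPM in sham to 266 ± 95.4 CPM in I/R, and lost its call without sham replicate 2. Timp1, which lies inside Syn1 on the opposite strand, went from a mean of 20.0 counts in sham to 2668 in I/R, against 10912 for Syn1 in I/R. Araf, which overlaps Syn1 on that strand too, had a mean of 8013 counts in sham and 7029 in I/R. Syn3, synapsin III, known mainly from early development and adult neurogenesis, was the gene with the lowest sham level per kb and had 13.4, 10.1 and 13.7 CPM in sham and 6.55, 8.23 and 9.73 CPM in I/R, a log2 fold change of -0.61 ± 0.19 (edgeR, adjusted p = 0.0363). Timp3 on its opposite strand had 4064 counts on average in I/R against 339 for Syn3, 14.2% of the Syn3 stretches were shared with other genes, and the call was lost in 10 of 20 settings, so Syn3 is uncertain. Opposite-strand genes also overlapped Syngr1 (Rpl3), Syn2 (Timp4), Unc13a (Colgalt1) and Vamp1 (Tapbpl), and 16.1% of the Syp stretches and 17.0% of the Syt12 stretches were shared.

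Sv2c went the other way. This member of the SV2 family is known from basal ganglia and brainstem rather than hippocampus, and lies on chromosome 13 from 94476487 to 94656463. The sham libraries held 1293, 1561 and 1299 Sv2c counts, and the I/R libraries 7694, 3830 and 4549. In CPM that was 169, 95.8 and 114 CPM in the I/R libraries and 33.1, 38.4 and 37.8 CPM in the sham libraries, so the lowest I/R library lay far above the highest sham library. The log2 fold change of 1.79 ± 0.20 (edgeR, adjusted p = 0.000736) was a 3.46-fold rise, and it was called in all 20 settings, between 1.52 and 2.06. The rise was largest in I/R replicate 1, the library in which the other genes fell furthest. Its share of 50-base stretches found in other genes was 0.302%. The ratio of Sv2a to Sv2c counts went from 16.8, 15.0 and 14.7 in sham to 2.06, 4.02 and 3.57 in I/R. Of the 7 markers of striatum, a region known to express Sv2c, 2 were lower, 1 was higher and 4 were not called. No brainstem markers were read, and a part of neighbouring tissue in the rise was not tested.

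Rab3 GTPases, which bring vesicles to the active zone through RIM and rabphilin, were lower in 3 of 3. Rab3a, the main form, had 173, 287 and 322 CPM in the I/R libraries and 572, 593 and 548 CPM in the sham libraries, a log2 fold change of -1.13 ± 0.21 (edgeR, adjusted p = 0.00482). Rab3c had 708, 683 and 691 CPM in sham and 213, 362 and 404 CPM in I/R and changed by -1.09 ± 0.22 (edgeR, adjusted p = 0.00639) on the log2 scale, nearly as much. Rab3b had 56.1, 57.0 and 53.5 CPM in sham and 39.8, 38.1 and 41.9 CPM in I/R, a smaller change of -0.48 ± 0.08 (edgeR, adjusted p = 0.00336) that was not called with library size only or with FPKM. It was the one DEG among the fallers whose lowest I/R library was replicate 2 and not replicate 1. The ratio of Rab3a to Rab3c counts overlapped between groups (0.793 to 0.867 in sham and 0.794 to 0.816 in I/R), while that of Rab3a to Rab3b went from 10.2, 10.4 and 10.3 in sham to 4.36, 7.54 and 7.68 in I/R.

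Active zone and priming genes were lower in 6 of 8. Unc13a, Munc13-1, the priming factor that opens syntaxin at excitatory terminals, had 179, 200.02 and 239 CPM in the I/R libraries and 472, 485 and 472 CPM in the sham libraries, a log2 fold change of -1.21 ± 0.13 (edgeR, adjusted p = 0.000653). Erc2 (ELKS2/CAST), an active zone scaffold, had 75.5, 154 and 178 CPM in the I/R libraries and 312, 277 and 306 CPM in the sham libraries and a log2 fold change of -1.14 ± 0.28 (edgeR, adjusted p = 0.0131). Pclo (piccolo), a giant scaffold that spans the active zone, had 127, 194 and 216 CPM in the I/R libraries and 364, 338 and 344 CPM in the sham libraries and a log2 fold change of -0.96 ± 0.19 (edgeR, adjusted p = 0.00511). These 3 had no overlap between groups, and Erc2 showed the broadest spread within I/R and lost its call without a count filter. Bsn (bassoon), the partner of piccolo, changed by -0.91 ± 0.18 (edgeR, adjusted p = 0.00604), from 725 ± 20.7 CPM in sham to 387 ± 92.0 CPM in I/R, and the ratio of Bsn to Pclo overlapped between groups. Rims2, a RIM scaffold, had 99.3, 96.8 and 91.5 CPM in sham and 48.9, 54.8 and 66.9 CPM in I/R and changed by -0.75 ± 0.12 (edgeR, adjusted p = 0.00249). Rims3, a short RIM form, changed by -0.77 ± 0.10 (edgeR, adjusted p = 0.00135), and the ratio of the pair overlapped too. In the I/R libraries Rims3 had 48.4, 49.96 and 49.2 CPM, the narrowest I/R spread among the genes that fell relative to its mean.

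The other Munc13 genes did not follow Unc13a. Unc13b, Munc13-2, had 57.7, 58.0 and 60.0 CPM in sham and 71.3, 60.3 and 61.1 CPM in I/R. All of its I/R values were above all of its sham values, but its log2 fold change of 0.13 ± 0.09 (edgeR, adjusted p = 0.275) did not pass, and it passed as higher with library size only, with a gene length offset and on FPKM. Unc13c, Munc13-3, best known from cerebellum, had 25.9, 34.3 and 27.4 CPM in sham and 28.3, 24.9 and 23.0 CPM in I/R and -0.20 ± 0.14 (edgeR, adjusted p = 0.275). The ratio of Unc13a to Unc13b counts went from 8.19, 8.37 and 7.88 in sham to 2.51, 3.32 and 3.91 in I/R.

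Both vesicular glutamate transporters were lower. Slc17a7 had 322, 849.7 and 929.7 CPM in the I/R libraries and 1729, 1903 and 1784 CPM in the sham libraries, a log2 fold change of -1.37 ± 0.35 (edgeR, adjusted p = 0.0165) with one of the widest errors, and it lost its call without a count filter or without sham replicate 2. I/R replicate 1 was far below the other two I/R libraries. Slc17a6, VGLUT2, the transporter of thalamic and other subcortical projections, had 15.4, 15.9 and 16.5 CPM in the I/R libraries and 21.4, 26.7 and 22.7 CPM in the sham libraries. Its log2 fold change of -0.57 ± 0.12 (edgeR, adjusted p = 0.00636) was smaller, its I/R libraries were close to each other, and with library size only or with FPKM it was not called. The ratio of Slc17a7 to Slc17a6 counts was 80.7, 71.4 and 78.7 in sham and 20.9, 53.5 and 56.2 in I/R.

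Both endocytosis genes were lower as well. Dnm1, dynamin 1, the neuronal GTPase that cuts vesicles from the plasma membrane, had 280.3, 639 and 754 CPM in the I/R libraries and 1623, 1629 and 1626 CPM in the sham libraries. The sham libraries were nearly alike, and the log2 fold change of -1.54 ± 0.33 (edgeR, adjusted p = 0.00723) was second only to that of Doc2b. Amph, amphiphysin, which recruits dynamin to curved membrane, had 98.5, 157 and 196 CPM in the I/R libraries and 299.8, 297 and 291 CPM in the sham libraries and a log2 fold change of -0.98 ± 0.22 (edgeR, adjusted p = 0.00945).

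Levels of different genes are compared as mean sham CPM per kb of the gene length listed in the table. They ran from 2.60 for Syn3 to 613 for Slc17a7, followed by Vamp2 (479 ± 11.7), Rab3a (455 ± 17.7), Snap25 (453 ± 13.5), Syp (450.1 ± 17.1) and Cplx2 (431 ± 7.73). Rab3a, Snap25 and Syp differed from each other by less than their SDs, so their order is not firm. By the authors' FPKM the order began Syp, Nsf, Vamp2 and Snap25. After the calls were seen, a line was drawn just above the highest gene that did not fall. That all 27 genes above it fell, by either measure, was therefore fixed by the choice of line. By CPM per kb these 27 had a median log2 fold change of -1.11, and the lowest of them was Synpr at 40.2 CPM per kb. Of the other 18, from 2.60 to 32.5 CPM per kb, 10 fell, 1 rose and 7 were not called, with a median of -0.52. Because the line was placed by the calls, nothing is read from the difference between the sets.

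I/R replicate 1 held the lowest level of the I/R libraries in 39 of the 45 genes (86.7%), while it did so in 41.4% of all genes tested and in 77.6% of all 3702 genes called lower. The median log2 deviation of the 45 genes from the sham mean was -1.48, -0.86 and -0.74 in I/R replicates 1 to 3. For the pan-neuronal markers it was -1.25, -0.54 and -0.58, and for all genes 0.03, 0.02 and 0.01. Sham libraries were within -0.02 to 0.03 for the release genes. Without I/R replicate 1 the median log2 fold change was -0.82, with 37 genes lower and 2 higher, the second being Syt4.

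**Figure D3:**
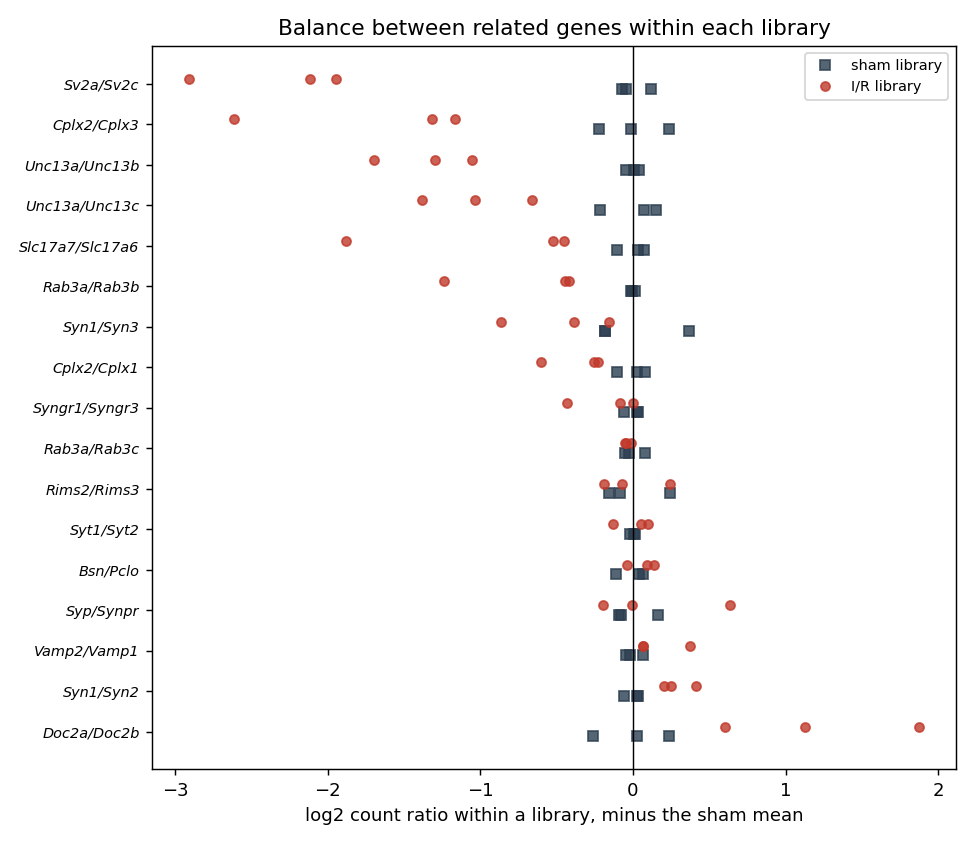
Log2 ratio of the counts of 2 related genes within each library, minus the mean of the sham libraries, for 17 pairs; squares are sham libraries and circles I/R libraries. Sv2a/Sv2c, Cplx2/Cplx3 and the 2 Unc13a pairs lie far left of 0 in I/R, Doc2a/Doc2b lies right, and Syt1/Syt2, Rab3a/Rab3c and Bsn/Pclo stay around 0.

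Ratios within a library do not depend on how libraries are scaled, and 17 pairs of related genes were compared by them. In 9 pairs the groups did not overlap, and the exact two-sided permutation test then gave p = 0.1 each, the smallest that 3 libraries against 3 allow (0.19 after Benjamini-Hochberg adjustment over the 17 pairs). None could therefore pass a threshold of 0.05. Of all single genes tested, 28.1% had every I/R library below sham and 29.3% had every one above. The share of non-overlapping ratios among pairs of other genes was not computed, so nothing is read from the count of 9. The mean log2 ratio of Sv2a to Sv2c was 2.32 lower in I/R, from 3.95 ± 0.11 to 1.63 ± 0.51. For Cplx2 to Cplx3 it went from 7.91 ± 0.23 to 6.21 ± 0.80, for Unc13a to Unc13b from 3.03 ± 0.04 to 1.68 ± 0.32, and for Unc13a to Unc13c from 4.04 ± 0.19 to 3.02 ± 0.36. Slc17a7 to Slc17a6 and Rab3a to Rab3b changed by -0.95 and -0.70, and Cplx2 to Cplx1 by -0.36. Syn1 to Syn2 was 0.29 higher and Doc2a to Doc2b 1.203 higher. The other 8 pairs overlapped (Syt1/Syt2, Vamp2/Vamp1, Syn1/Syn3, Rab3a/Rab3c, Bsn/Pclo, Syngr1/Syngr3, Syp/Synpr and Rims2/Rims3), with mean differences from -0.47 to 0.17.

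The wider vesicle cycle was read from a list of 118 other genes, of which 110 were tested. This list, too, was drawn up with earlier results of these data known. Of these, 56 were lower, 20 were higher and 34 were not called, with a median log2 fold change of -0.39. Over all genes tested 19.9% were lower and 21.8% higher, and the median of all genes was 0.03. The share called higher in the list was close to that of all genes, so nothing is read from it. The count depended on single libraries, since without sham replicate 2 there were 33 lower and 10 higher, and without sham replicates 1 or 3 there were 13 and 12 higher. With library size only 30 were lower and 25 higher, where 2027 and 6334 of all 18569 genes tested were. The largest falls were those of Atp6v1g2, a subunit of the proton pump that energises filling, at -1.50 ± 0.27 (edgeR, adjusted p = 0.00366), of Cadps2, a dense-core vesicle priming factor, at -1.46 ± 0.21 (edgeR, adjusted p = 0.00157), and of Syt3 at -1.34 ± 0.29 (edgeR, adjusted p = 0.00799), which lost its call without a count filter. Sh3gl2 (endophilin A1), which helps uncoat vesicles, followed at -1.26 ± 0.25 (edgeR, adjusted p = 0.00553) and Lin7b, a scaffold protein, at -1.23 ± 0.26 (edgeR, adjusted p = 0.00729). Of 10 subunits of the vacuolar ATPase 7 were lower and 1 was higher (Atp6v1h, 0.35), and all 5 subunits of the AP-2 clathrin adaptor tested were lower, with a range of -0.58 to -0.39. These complexes were picked after their values were seen. With library size only, 5 of the 7 calls in the ATPase and 4 of the 5 in AP-2 were lost, and the genes called lower passed in 9 (Atp6v1a) to 20 (Atp6v1g2) of 20 settings in the ATPase and in 10 (Ap2m1) to 18 (Ap2b1) in AP-2. Atp6v1h passed in 11. Slc32a1, the vesicular GABA transporter, changed by -0.38 ± 0.09 (edgeR, adjusted p = 0.0139) from 79.7, 90.97 and 80.3 CPM in sham to 69.8, 62.5 and 60.9 CPM in I/R, with no overlap. Its call was lost in 6 of 20 settings, among them library size only, FPKM and the fit without sham replicate 2. Slc30a3, the zinc transporter of glutamatergic vesicles, changed by -0.94 ± 0.21 (edgeR, adjusted p = 0.00921).

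The largest rise in that list was that of Syt6, which had 24.1, 19.3 and 15.2 CPM in the I/R libraries and 7.97, 8.29 and 6.37 CPM in the sham libraries, a log2 fold change of 1.37 ± 0.20 (edgeR, adjusted p = 0.00163). Syt15 changed by 1.27 ± 0.27 (edgeR, adjusted p = 0.00723), Syngr2 by 1.15 ± 0.20 (edgeR, adjusted p = 0.0034), Rab3il1, an exchange factor for Rab3, by 1.07 ± 0.18 (edgeR, adjusted p = 0.00319) and Cltb, clathrin light chain B, by 0.85 ± 0.18 (edgeR, adjusted p = 0.00683). No called gene of the list changed direction in any of the 20 settings tried.

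**Figure D4:**
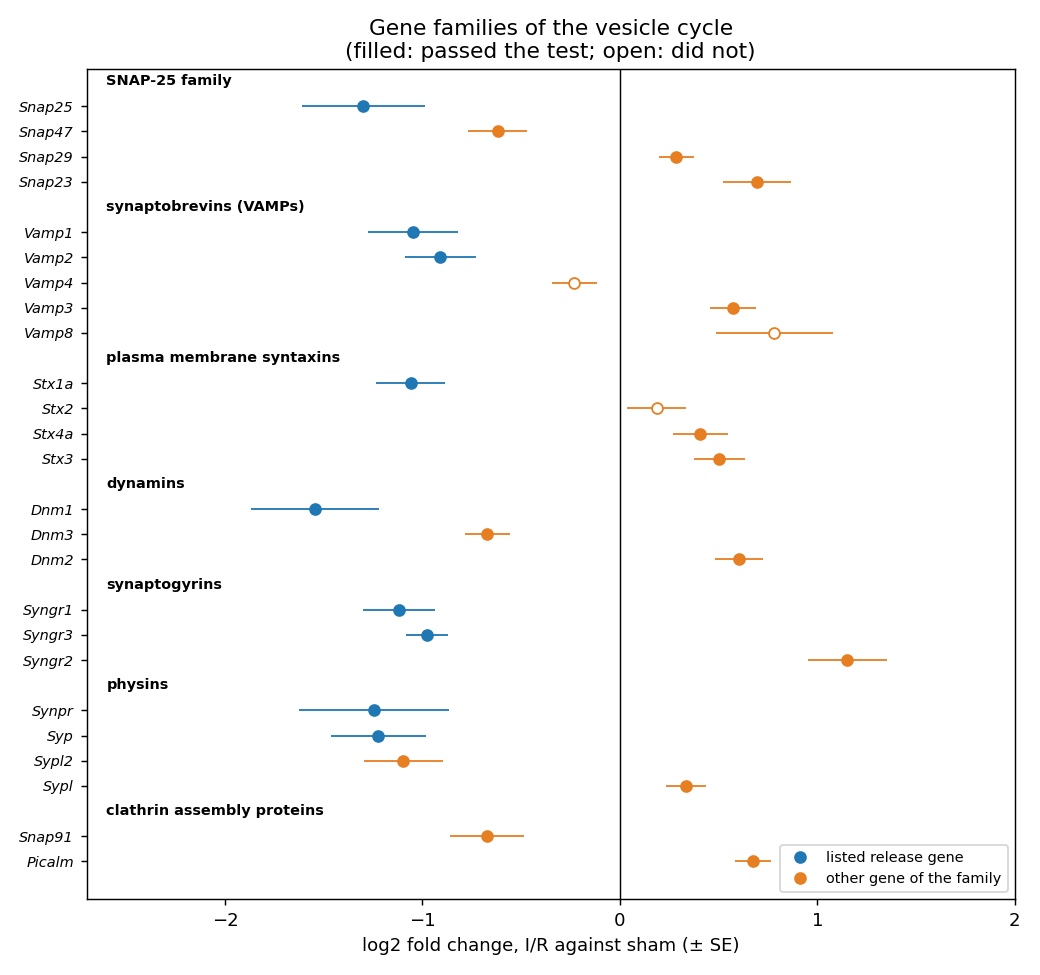
Log2 fold change of I/R against sham with bars of ± 1 SE for 25 tested genes of 7 families of the vesicle cycle; blue marks the listed release genes and orange the other genes of the family, and filled points were DEGs. Each family has filled points on both sides of 0.

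In 7 families of fusion and retrieval proteins, chosen after their values were seen, some relatives fell and others rose. Of their 25 tested genes 13 were lower and 9 higher, where 19.9% and 21.8% of all genes were, and since the families were picked for having both, nothing is read from that split. Snap25 and Snap47 (-0.62) fell, while Snap23, the SNAP-25 relative used for secretion outside neurons, rose from 13.5, 13.7 and 19.0 CPM to 29.4, 22.3 and 22.9 CPM, a log2 fold change of 0.69 ± 0.17 (edgeR, adjusted p = 0.0143). Snap29 rose by 0.29. Vamp1 and Vamp2 fell, and Vamp3 (cellubrevin), the widely expressed synaptobrevin, rose by 0.57 ± 0.12 (edgeR, adjusted p = 0.0065). Stx1a fell, and Stx3 (0.50) and Stx4a (0.41), syntaxins of many secretory cells, rose.

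Among the retrieval and membrane families, Dnm1 and Dnm3 (-0.67) fell, and Dnm2, the ubiquitous dynamin, rose from 64.3, 62.8 and 67.5 CPM to 118, 89.8 and 88.6 CPM, a log2 fold change of 0.61 ± 0.12 (edgeR, adjusted p = 0.00587). Snap91 (AP180), the neuronal clathrin assembly protein, changed by -0.67 ± 0.19 (edgeR, adjusted p = 0.0229) and was called in 12 of 20 settings, and Picalm, its ubiquitous relative, rose by 0.68 ± 0.09 (edgeR, adjusted p = 0.00141). Syngr1 and Syngr3 fell and Syngr2 rose, and Syp, Synpr and Sypl2 (-1.10) fell while Sypl (0.34) rose. Of the 9 that rose, Syngr2 was called in all 20 settings, and Vamp3, Dnm2 and Picalm in all but the one that asked for a 2-fold change. Snap23 was called in 16 of 20 settings, not without sham replicate 1 or 2, Stx3 in 14, Sypl in 13, and Snap29 and Stx4a in 10. Most markers of endothelium and infiltrating myeloid cells were higher in I/R too, with the sums given above, and their part in these rises was not tested.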

How the data were processed

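Hippocampal RNA of 3 I/R and 3 sham libraries was sequenced. The authors aligned reads with TopHat 2 to an Ensembl genome and made the deposited counts with HTSeq, whereas the submitters' processing notes name Bowtie 0.12.2 and mm8. The deposited table carries identifiers and coordinates of the Ensembl BALB/cJ annotation, although the mice were C57BL/6 (C57BL/6J in the study's methods), and 4 split lines were rejoined. The deposited FPKM values of the authors use a gene length shorter than the one listed for most genes. The authors' own fold-change and p-value columns were not used. Strand use in counting is not given in the sources used here. Depth was 37493042 to 44788547 counts per library. The edgeR p-values set the group difference against the spread between pools, which edgeR estimates with information from all genes.

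Counts were filtered with filterByExpr, scaled by TMM and tested with edgeR 4.0.16 (glmQLFit, robust, glmQLFTest) in R 4.3.3, without covariates. The Benjamini-Hochberg adjustment ran over all genes tested. The SE was the size of the log2 fold change over the square root of F. The fit was run on simulated counts in which few genes changed, in both directions. It was not tested on a change as broad as the one here or with a deviant library. Count ratios were compared by exact two-sided permutation in SciPy 1.17.1. Alternatives used DESeq2 1.42.0, limma 3.58.1 (voom, and log2(FPKM + 0.1) and log2(FPKM + 1)), other scalings and filters, and each library left out. Groups and replicate numbers come from the sample titles.

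Every release gene is named. Values per library are given for the 3 largest falls and rises of a larger role class, for genes called higher and for the gene of highest FPKM in a class; of the other vesicle genes the 5 largest falls and rises are named. Other genes were chosen after their values were seen. Members and lists were chosen with earlier results of these data known. The 50-base stretches were counted in GENCODE M21 transcripts. Some genes of the wider lists are counted in them but not reported by name here.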

Additional observations from a re-analysis of the deposited data

How the results depend on the processing

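Depth, at 37493042 counts or more, left no release gene at the floor. The groups held 3 pools each. Direction is relative to the scaling. With library size only, 75.8% of all calls were higher, against 52.3% with TMM. The count of release genes called lower was 37, with 32 to 37 when one library was left out. It was 23 with a fold change over 2. The count called higher was 1, with 1 to 2 leaving out one library, 2 with a gene length offset, 4 with library size only (Sv2c, Syt4, Cplx3 and Unc13b), and 3 and 3 on log2(FPKM + 0.1) and log2(FPKM + 1). The median log2 fold change stayed between -1.21 and -0.76, and between -1.19 and -0.82 leaving out one library. Of the other vesicle cycle genes, 56 were lower, with 33 to 61 leaving out one library, 30 with library size only, 28 and 29 on FPKM with 0.1 and 1 added and 13 over 2-fold. Those called higher were 20, with 10 to 18 leaving out one library, 4 over 2-fold and 12 without the pair of libraries nearly free of choroid plexus markers, which was added after seeing the data.

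Same-numbered libraries had r of -0.10, 0.06 and -0.18 between their deviations, against -0.17 to 0.27 for libraries of different numbers. The deviations were centred within each group of 3, so these values depend on each other and cannot exclude a pairing. With a replicate block 36 release genes were lower and 1 higher, 50 and 15 of the other list, and 3058 and 3274 of all genes, against 3702 and 4054.

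Signs turned in genes that were not called and in ratios that overlapped between groups, and the cause was not tested. With library size only, log2(FPKM + 0.1) and log2(FPKM + 1), Syt12 was at 0.11, 0.10 and 0.093, Stxbp5 at 0.071, 0.069 and 0.068, and Unc13c at 0.061, 0.057 and 0.046. Leaving out one library, Doc2a was between -0.69 and 0.024, positive without I/R replicate 1. Among the log2 ratios, Syt1/Syt2 then differed by -0.040 to 0.076 (negative without I/R replicate 1 or 3 or sham replicate 2, and -0.0038 on FPKM), and Syp/Synpr by -0.10 to 0.32 (negative without I/R replicate 1). Rims2/Rims3 differed by -0.13 to 0.11 (positive without I/R replicate 1 or 2 or sham replicate 1) and Rab3a/Rab3c by -0.062 to 0.0025 (positive without sham replicate 2). Syt5 and Syn3 lost their calls in 10 of 20 settings each.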
